A study of Saccharomyces cerevisiae with 3 samples.

Results

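The mitotic exit network genes of budding yeast were followed across 3 Affymetrix expression arrays. The 10 genes are TEM1, LTE1, BUB2, BFA1, CDC15, DBF2, DBF20, MOB1, CDC14 and NET1. They were taken by name, as the probe sets whose platform gene symbol matches in capital letters. Each gene had 1 probe set, so 10 of the 5498 Saccharomyces cerevisiae probe sets (5449 genes) are described. The baseline RNA came from the W303 background, mating type MAT-alpha, carrying cdc15-2, a temperature-sensitive allele of CDC15. Cells had grown in minimal medium at 23 °C in a fermentor for 340 minutes since their release from the restrictive temperature. This baseline material made up 100% of the sample on the first array, 99% on the second beside 1% spike, and 90% on the third beside 10% spike. The baseline material of all 3 arrays thus shares the labelled strain, mutation and time point. No array was labelled as a wild-type strain or a second time point. The labels do not say what the spike was, whether the arrays came from separate cultures, or how many cells were in mitosis.

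The mitotic exit network is a signalling cascade that ends mitosis in budding yeast. At the spindle pole body that enters the bud, the small GTPase Tem1 is released from its inhibitor and activates the kinase Cdc15, which in turn activates the Dbf2-Mob1 kinase complex. Dbf2-Mob1 keeps the phosphatase Cdc14 out of the nucleolus, where the anchor protein Net1 holds it for most of the cycle. Free Cdc14 reverses phosphorylations made by the mitotic cyclin-dependent kinase and so lets the cell leave mitosis. A cdc15-2 culture moved to the restrictive temperature stops late in mitosis, and its return to a low temperature is a common way to start a synchronous cycle. These are background facts; the arrays measured RNA only, not kinase activity or the position of Cdc14.

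The values are log2 expression values from RMA (robust multi-array average), so a difference of 1 is 2-fold. There were no replicates, so differences have no error and no test was run; the number of arrays limits the precision. RMA makes the arrays' distributions nearly equal, which hides a shift common to all genes, and its median polish over 3 arrays can return exactly equal values. Over the S. cerevisiae probe sets the median was 10.81 on the baseline array, 10.82 on the 1% array and 10.84 on the 10% array. As a description of the strain, the 5 alpha-specific genes MF(ALPHA)1, MF(ALPHA)2, STE3, SAG1 and AFB1 lay between 13.75 and 14.64 on the 3 arrays. The 7 a-specific genes, which MAT-alpha cells repress, lay between 8.85 and 11.04. These are signals of separate probe sets, with no array of the opposite mating type beside them, so they do not test the MAT-alpha label. The signal of CDC15 cannot check the cdc15-2 label, because a probe set does not show a point mutation.

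The GTPase switch held both the dimmest member and the member that differed most between arrays. TEM1, which encodes the GTPase itself, measured 10.76 on the baseline array, 10.80 on the 1% array and 10.96 on the 10% array. Its signal was thus a little higher on each array with more spike. BUB2 and BFA1 encode the 2 parts of the GTPase-activating complex that holds Tem1 inactive. BUB2 measured 10.02 on the baseline array, 10.02 on the 1% array and 10.04 on the 10% array, nearly level. BFA1 measured 6.63 on all 3 arrays, equal to 3 decimals, and was the dimmest of the 10. LTE1, whose product at the cortex of the daughter cell promotes exit and is needed most at low temperature, measured 8.84 on all 3 arrays.

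Among the kinase genes the array values differed little or not at all. CDC15, the gene with the mutation and the kinase that Tem1 recruits, measured 10.29 on all 3 arrays. DBF2, the kinase of the nuclear Dbf2-related (NDR) family that acts below Cdc15, measured 11.78 on all 3 arrays. Its duplicate gene DBF20 measured 9.59 on the baseline array, 9.59 on the 1% array and 9.50 on the 10% array, the only member lower on a spiked array. MOB1, the activating subunit of Dbf2, measured 11.93 on the baseline array, 11.95 on the 1% array and 11.95 on the 10% array. MOB1 was the brightest member and the partner of the next brightest, DBF2.

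The genes at the output of the cascade were slightly higher on the 10% array and equal on the other two. CDC14, the phosphatase gene, measured 10.65 on the baseline array, 10.65 on the 1% array and 10.82 on the 10% array. NET1, which encodes the nucleolar anchor of Cdc14, measured 11.71 on the baseline array, 11.71 on the 1% array and 11.77 on the 10% array. CDC14 differed by more than NET1, and both kept their baseline value to 3 decimals on the 1% array. In 10% over baseline 31.1% of the S. cerevisiae probe sets differed by at least as much as NET1 in either direction. That share was 6.8% for CDC14 and 21.8% for the kinase gene DBF20, whose difference was in the other direction. In size DBF20 thus lay between CDC14 and NET1, so these values do not set the output genes as a pair apart from the kinase genes.

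**Figure D1:**
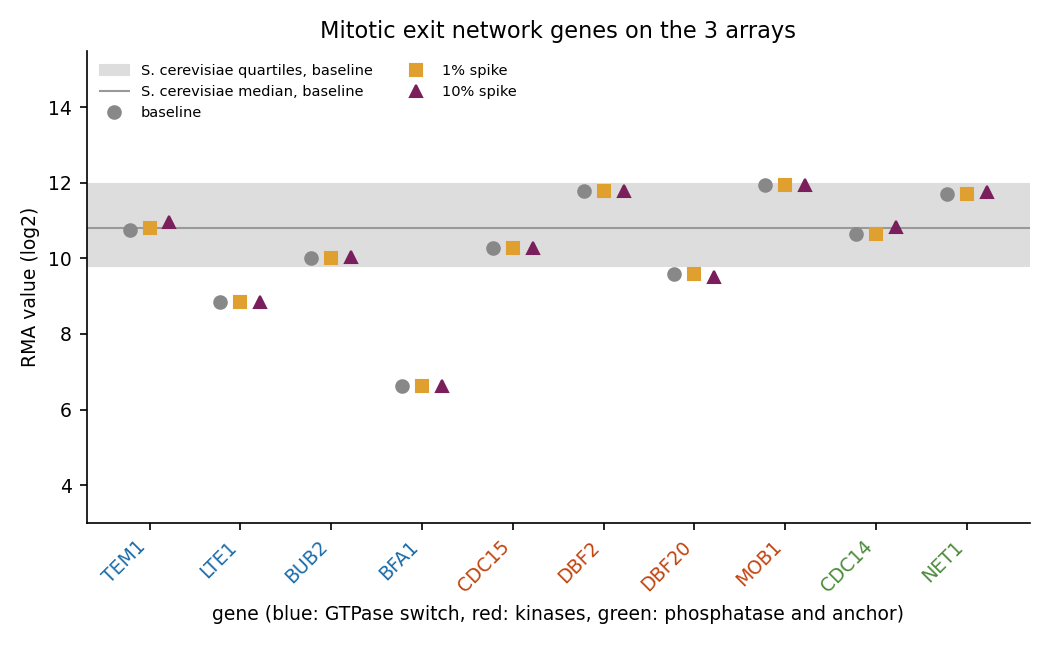
RMA value (log2, vertical axis) of each mitotic exit network gene on the baseline (grey circles), 1% spike (orange squares) and 10% spike (purple triangles) arrays. The grey band and line are the quartiles (9.79 and 11.97) and median (10.81) of the S. cerevisiae probe sets on the baseline array. BFA1, LTE1 and DBF20 lie below the band, and the other 7 genes lie inside it.

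Most of the mitotic exit network genes ranked in the middle or the lower part of the yeast signals. A probe set's signal depends on its probes as well as on its transcript, so these ranks order signals and not amounts of RNA. On the baseline array 3 of the 10 genes lay above the median S. cerevisiae probe set, 0 lay above the upper quartile and 3 lay below the lower quartile. MOB1 was brighter than 74.2% of the 5498 probe sets, DBF2 than 71.4% and NET1 than 70.0%. TEM1 stood at percentile 48.8, CDC14 at 45.7, CDC15 at 36.6, BUB2 at 29.9 and DBF20 at 21.5. LTE1 stood at 11.7 and BFA1 at 3.5. The median percentile of the 10 genes was 41.2 on the baseline array, 41.0 on the 1% array and 42.5 on the 10% array.

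The ranks were nearly the same on the spiked arrays. TEM1 moved most, standing at percentile 48.8 on the baseline array, 49.5 on the 1% array and 53.2 on the 10% array, which put it above the median S. cerevisiae probe set. CDC14 stood at 45.7, 45.6 and 49.3 on the same arrays, just below the median. CDC15, whose value was equal on the 3 arrays, still moved slightly in rank, at 36.6, 36.4 and 35.7, because other probe sets differed around it. The order of the 10 genes from brightest to dimmest was the same on all 3 arrays: MOB1, DBF2, NET1, TEM1, CDC14, CDC15, BUB2, DBF20, LTE1 and BFA1. The closest neighbours were DBF2 and NET1, separated by 0.074 on the baseline array, 0.074 on the 1% array and 0.012 on the 10% array. That gap is smaller than the differences of TEM1 or CDC14 between arrays, so the order of DBF2 and NET1 is not settled. TEM1 and CDC14 were separated by 0.11, 0.15 and 0.14 on the baseline, 1% and 10% arrays, also less than the difference of TEM1 between the 10% and baseline arrays.

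**Figure D2:**
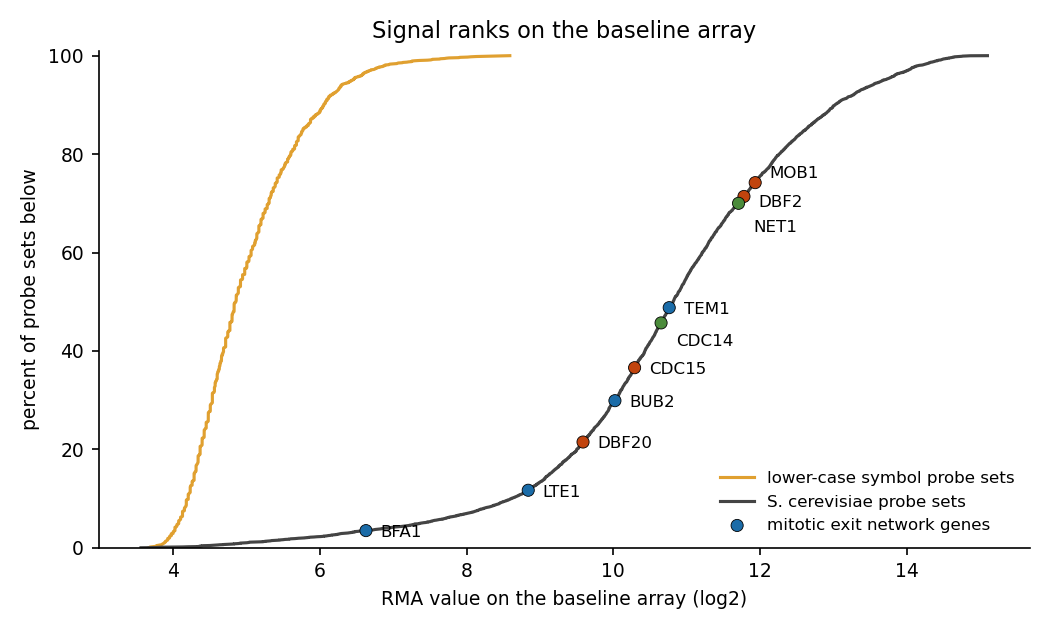
Cumulative share of probe sets (percent, vertical axis) against the RMA value on the baseline array (log2) for S. cerevisiae probe sets (dark line) and probe sets with lower-case symbols (orange line). Points are the mitotic exit network genes (blue, GTPase switch; red, kinases; green, phosphatase and anchor). They run from BFA1 at percentile 3.5 to MOB1 at 74.2, and BFA1 alone falls within the upper tail of the orange line.

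BFA1 was the member for which the array's lower end matters most. The array also carries 1746 probe sets with symbols in lower case that are not in the S. cerevisiae gene table, and their organism is not given in the sources used here. Their median was 4.86 on the baseline array and 95% of them lay below 6.44. BFA1, at 6.63, exceeded 96.6% of them, and LTE1, the next dimmest member at 8.84, lay above the highest of them, at 8.59. Signals as low as that of BFA1 can hold background, so its equal values on the 3 arrays bear less on the BFA1 transcript than those of brighter members do on theirs.

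Agreement between arrays was then compared with that of the other yeast genes. BFA1, LTE1, CDC15 and DBF2 were equal to 3 decimals on all 3 arrays, which is 4 of 10 members against 25.9% of the S. cerevisiae probe sets. The range over the 3 arrays had a median of 0.018 for the members and 0.030 for the S. cerevisiae probe sets. Its largest value was 0.20 (TEM1) among the members, while 95% of the S. cerevisiae probe sets had a range of at most 0.195. With 10 genes, these shares do not set the members apart from the rest.

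Between the 1% and the baseline array, the mitotic exit network genes were almost indistinguishable. TEM1 differed by 0.040 and MOB1 by 0.014, and the other 8 differed by 0. Equal values were also the rule elsewhere, for 62.9% of the S. cerevisiae probe sets. None of the 10 members differed by 0.1 or more in either direction, against 1.98% of the S. cerevisiae probe sets, and at 1.5-fold the counts were 0 of 10 members and 0% of those probe sets. The 0.040 of TEM1 lay within the spread of all these probe sets, of which 11.5% differed by at least as much.

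Between the 10% and the baseline array, TEM1 and CDC14 differed most. TEM1 was higher by 0.20, a 1.15-fold difference, and CDC14 by 0.17, or 1.12-fold. NET1 was higher by 0.062, BUB2 by 0.021 and MOB1 by 0.014, while DBF20 differed by -0.086. BFA1, LTE1, CDC15 and DBF2 differed by 0, so 4 of 10 were identical against 27.7% of the S. cerevisiae probe sets. TEM1 and CDC14 are 2 of 10 members past 0.1 in either direction, where 17.6% of the S. cerevisiae probe sets passed it. Both were higher, as were 9.49% of those probe sets by that amount. The members' share is thus near the background, and it is not a result about the network. At least as large a difference in either direction was found at 4.4% of the S. cerevisiae probe sets for TEM1 and at 6.8% for CDC14. No member reached 1.5-fold, and 0.255% of the S. cerevisiae probe sets did.

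**Figure D3:**
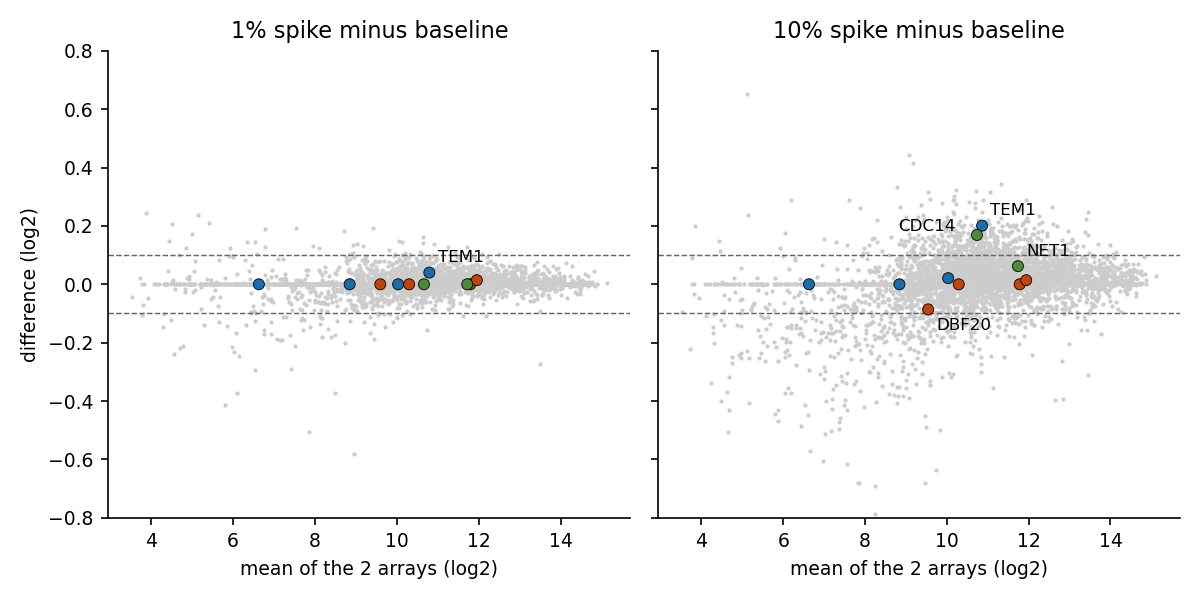
Difference from the baseline array (log2, vertical axis) against the mean of the 2 arrays (log2) for the 1% array (left) and the 10% array (right). Grey points are S. cerevisiae probe sets, coloured points the mitotic exit network genes (blue, GTPase switch; red, kinases; green, phosphatase and anchor), and dashed lines mark 0.1 and -0.1. TEM1 (0.20) and CDC14 (0.17) lie above the upper line at 10% spike, inside the grey cloud; 5 grey points of the right panel lie beyond its axis.

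Between the 10% and the 1% array, CDC14 and TEM1 had the largest differences of the 10 members. CDC14 was higher by 0.17, TEM1 by 0.16, NET1 by 0.062 and BUB2 by 0.021. DBF20 differed by -0.086 and the other 5 by 0, against 34.6% of the S. cerevisiae probe sets with equal values. The members past 0.1 were again 2 of 10, against 13.3% of the S. cerevisiae probe sets in either direction and 6.78% in the higher one. With 10 genes, that count is not a result about the network. At 1.5-fold the counts were 0 of 10 members and 0.146% of the S. cerevisiae probe sets. This comparison shares its 10% array with the preceding one, and CDC14, NET1, BUB2 and DBF20 had equal baseline and 1% values, so it adds no separate observation of them. The median difference of the 10 members was 0.007 for 10% spike over baseline and 0 for the other comparisons, and that of all S. cerevisiae probe sets was 0 in each.

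The 10% array differed from the others beyond these genes. The standard deviation of the differences over S. cerevisiae probe sets was 0.10 for 10% spike over baseline and 0.033 for 1% spike over baseline. The 27 hybridization control probe sets (bioB, bioC, bioD and cre, of bacterial and phage origin) were all higher on the 10% array than on the baseline array, with a median difference of 0.51. On the 1% array 22 of the 27 were higher than on the baseline array, with a median of 0.055. The part of these array-wide differences in the values of TEM1 and CDC14 was not tested.

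The genes most like CDC15 and TEM1 over the 3 arrays were found by Euclidean distance between their log2 values among 5497 other S. cerevisiae probe sets. For CDC15 they were PRP39 at a distance of 0.0035 and PFA3 and VTH1 at 0.0052, each also equal on the 3 arrays. The VTH1 probe set is of a kind that can match several transcripts. For TEM1 they were MPD2 at 0.035, RNA15 at 0.036 and INP53 at 0.039. MPD2 measured 10.74 on the baseline array, 10.79 on the 1% array and 10.99 on the 10% array, a small stepwise pattern like that of TEM1. With 3 arrays, each mostly of baseline material with the same labels, such likeness describes levels and array differences and nothing more.

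The wider machinery of mitotic exit was described with 4 lists, in which 46 genes were measured. Over the 46 genes the median 10% over baseline difference was 0.0025. In that comparison 1 gene was higher and 3 were lower by 0.1 or more, 4 in all, against 17.6% of S. cerevisiae probe sets. In 1% over baseline 1 of the 46 genes, DOC1, was past 0.1, with a difference of -0.25, a share near the 1.98% of S. cerevisiae probe sets. With at most 16 genes per list, the counts below do not set any list apart from the other probe sets.

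The spindle pole scaffold and upstream regulators held 12 measured genes, with a median difference of 0.019 between the 10% and baseline arrays. In that comparison 1 gene was higher and 1 lower past 0.1, against 17.6% of S. cerevisiae probe sets in either direction. CNM67, which encodes a structural protein of the spindle pole body's outer plaque, measured 9.99 on the baseline array, 9.94 on the 1% array and 9.81 on the 10% array. GIC2, which encodes an effector of the polarity GTPase Cdc42, was higher by 0.10 on the 10% array than on the baseline array, just past the threshold. RTS1, which encodes a regulatory subunit of protein phosphatase 2A, differed by 0.063 and CLA4, a kinase gene of bud polarity, by -0.064. NUD1, which encodes the scaffold on which Cdc15 and Dbf2-Mob1 assemble, measured 8.38 on the baseline array, 8.38 on the 1% array and 8.39 on the 10% array. All 3 values of NUD1 lay below 8.59, the highest lower-case value on the baseline array, so they can hold background. CDC5, the polo kinase gene that acts on Bfa1, differed by 0.025 between the 10% and baseline arrays.

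The list for early anaphase release of Cdc14 (the FEAR network) and separase contained the gene with the largest difference. SLK19, which encodes a kinetochore and spindle protein that separase cleaves, measured 8.19 on the baseline array, 8.10 on the 1% array and 7.51 on the 10% array. Its 10% over baseline difference was -0.68, or 1.60-fold lower. In that direction 0.218% of the S. cerevisiae probe sets were past 1.5-fold. The signal of SLK19 was low, at percentile 7.8 of those probe sets on the baseline array and 5.8 on the 10% array. All 3 of its values lay below 8.59, the highest lower-case value on the baseline array, so they can hold background. SLK19 was the only one of the 11 genes of this list past 0.1, against 17.6% of S. cerevisiae probe sets, and the list's median was 0. BNS1 differed by 0.077, TPD3, the scaffold subunit gene of protein phosphatase 2A, by 0.054, and TOF2, the duplicate of NET1, by -0.075. FOB1, whose product binds ribosomal DNA in the nucleolus, measured 9.62 on all 3 arrays, and CDC55, a protein phosphatase 2A regulatory subunit gene, 10.95.

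The anaphase-promoting complex, the ubiquitin ligase that Cdc14 helps to keep active through Cdh1, was represented by 16 genes. Of these, 0 were higher and 1 was lower by 0.1 or more in 10% over baseline, against 17.6% of S. cerevisiae probe sets in either direction. The list's median was 0.011. DOC1, a subunit gene, measured 6.26 on the baseline array, 6.02 on the 1% array and 6.12 on the 10% array, with no order by spike. Like BFA1 it lay near the signals of the lower-case probe sets. CDC27 differed by 0.090, CDH1, the activator that Cdc14 dephosphorylates, by 0.052 and MND2 by -0.042. CDC26 differed by 0.022 and CDC23 by 0.

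Genes of cyclin-dependent kinase inhibition and transcription at mitotic exit showed no difference past 0.1 in 10% over baseline. The count was 0 of 7 measured genes, against 17.6% of S. cerevisiae probe sets, and the list's median was 0. SWI5, which encodes a transcription factor that enters the nucleus once Cdc14 has dephosphorylated it, measured 10.54 on all 3 arrays. CLB2, the main mitotic cyclin gene, measured 10.49 on the baseline array, 10.44 on the 1% array and 10.55 on the 10% array. CBK1, a kinase of the same NDR family as Dbf2, differed by 0.060 between the 10% and baseline arrays, and MOB2, its MOB1-like subunit, by 0.039. CDC6, a replication licensing gene, differed by -0.026 and CDC28, the cyclin-dependent kinase gene, by 0.

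Duplicate gene pairs were set side by side for their differences only, since the signals of separate probe sets are not comparable as amounts. DBF2 and DBF20 differed by 0 and -0.086 in 10% over baseline. NET1 and TOF2 differed by 0.062 and -0.075, in opposite directions. SPO12 and BNS1, which promote early release of Cdc14, differed by 0.033 and 0.077, and ZDS1 and ZDS2, which act on protein phosphatase 2A, by 0.005 and 0. All of these are below 0.1 in size.

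**Figure D4:**
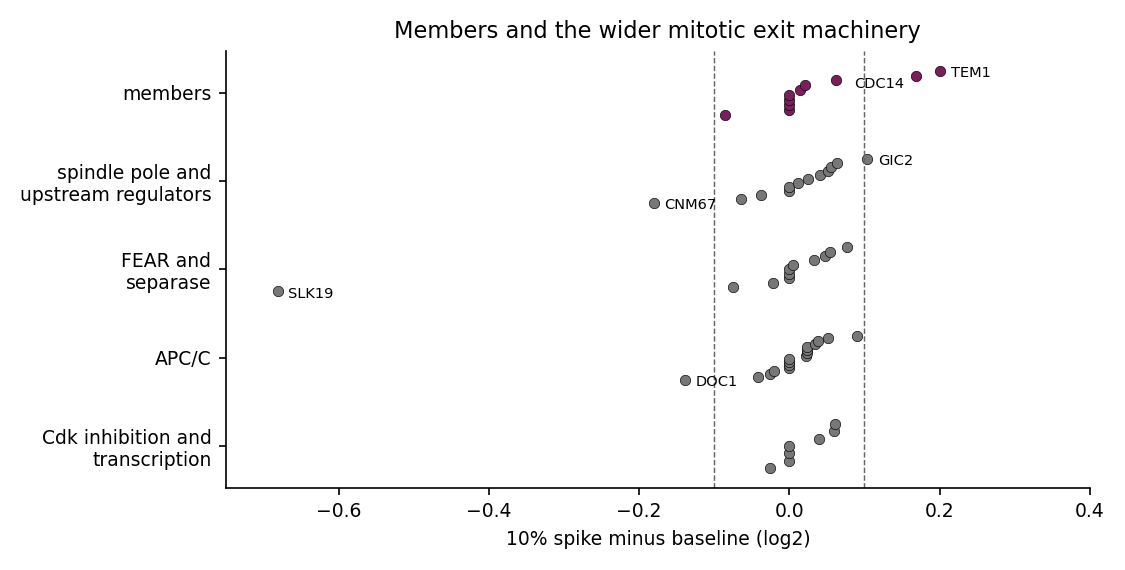
Difference between the 10% spike and baseline arrays (log2, horizontal axis) for the 10 mitotic exit network genes (purple) and 4 lists of related genes (grey), 1 point per gene, with dashed lines at 0.1 and -0.1. TEM1, CDC14 and GIC2 lie above the upper line, CNM67 and DOC1 below the lower one, and SLK19, at -0.68, far from all others.

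The lower-case symbols include names that Schizosaccharomyces pombe uses for its septation initiation network, the counterpart of the mitotic exit network in that fission yeast. They were read for the steps they name in that pathway. On the array 3 lower-case symbols (mob1, cdc14 and cdc15) differ from a member's symbol in case alone. No organism is assigned to the probe sets here. In S. pombe the counterpart of Tem1 is spg1, of Bub2 cdc16, of Cdc15 cdc7, of Dbf2 sid2, of Mob1 mob1 and of Cdc14 clp1. Of 14 septation symbols searched, which did not include cdc15, 9 had a probe set. The same letters can name different genes: S. pombe cdc15 is a contractile ring protein and S. pombe cdc14 a regulator of a septation kinase. The lower-case cdc15 probe set measured 4.57 on all 3 arrays, where the CDC15 probe set measured 10.29. The lower-case cdc14 probe set measured 4.64 on the baseline array, 4.64 on the 1% array and 4.59 on the 10% array.

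Of these 9 probe sets, 1 stood far from the other 8 on the spiked arrays. The sid2 probe set measured 5.58 on the baseline array, 6.47 on the 1% array and 9.17 on the 10% array. Its difference from the baseline array was 0.89 at 1% spike and 3.60 at 10% spike. Over the same arrays DBF2 measured 11.78 each time, and its duplicate DBF20 did not exceed 9.59. The mob1 probe set measured 6.29 on the baseline array, 6.46 on the 1% array and 6.46 on the 10% array, a difference of 0.17 that had no step between the spiked arrays. The spg1 probe set measured 4.66, 4.68 and 4.68 on the baseline, 1% and 10% arrays, cdc16 4.72, cdc7 4.34, clp1 4.56 and plo1 4.51 on each, and cdc11 4.65, 4.56 and 4.56. Apart from sid2, none of the 9 differed by 0.2 or more. In 10% over baseline 2 of the 9, sid2 and mob1, were past 0.1 in either direction, against 24.6% of all 1746 lower-case probe sets. The sid2 probe set is 1 of 2 past 2-fold, or 0.115% of the lower-case probe sets, and the brightest lower-case probe set of the 10% array, at 10.64, was another one, rpt3.

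**Figure D5:**
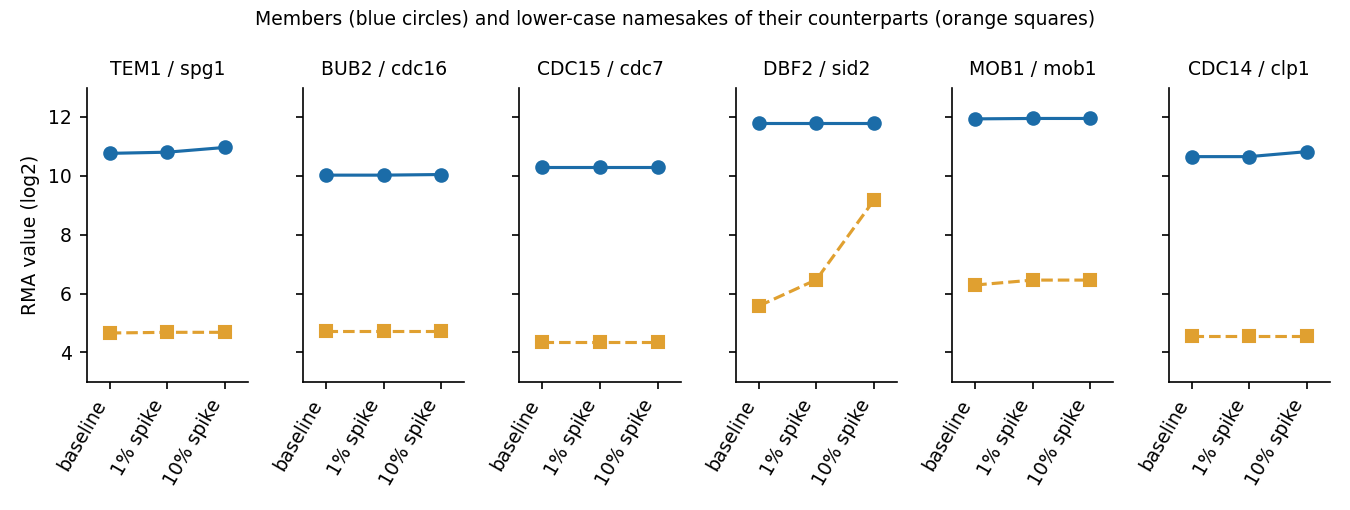
RMA value (log2, vertical axis) on the baseline, 1% spike and 10% spike arrays for 6 mitotic exit network genes (blue circles) and the lower-case symbols of their S. pombe counterparts (orange squares), 1 panel per pair. The sid2 line reaches 9.17 on the 10% array while DBF2 is at 11.78 on each array, and the other orange lines stay below 6.5.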

How the data were processed

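Total RNA of a yeast strain, alone or with 1% or 10% spike of unstated origin, was, per the labels' protocols, turned into cDNA and then by in vitro transcription into labelled (biotin) RNA, and measured on 3 arrays. The deposited table gives log2 values, 1 per probe set and array, which the authors made with RMA, per the submitters' processing notes. No label states the log2 scale, which was inferred from what RMA returns and from the range of the values. The version of RMA and the arrays it was run on together are likewise not stated in these sources. The members and gene lists were chosen with earlier results of these data known. Of 10928 probe sets, 166 controls were left out, and names came from the platform annotation, updated to assembly R64. Values were used as deposited and differences rounded to 3 decimals. Genes were counted past 0.1 (log2) and 1.5-fold, beside the same counts over the 5498 S. cerevisiae probe sets. In each wider list, the 4 genes with the largest 10% over baseline difference in size and the 2 nearest the list's median were named. Duplicate pairs, all members and the lower-case symbols were named too. Alternatives were quantile normalization over again, centring on the S. cerevisiae median, a loess trend (span 0.3), other rank populations and filters on level. The counting and scaling steps were tested on simulated data. Python 3.11.15, pandas 2.3.3 and statsmodels 0.14.6 were used. With 1 array per group, no test was run. Sequences and coordinates are not used here.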

Additional observations from a re-analysis of the deposited data

Results flagged for a closer look

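The probe set with the lower-case symbol sid2, which is outside the S. cerevisiae genes compared above, was higher by 3.60 (log2) on the 10% array than on the baseline array. Its organism is not given in the sources used here, and each array was measured once.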

How the results depend on the processing

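All 90 member differences under the 3 other scalings (10 genes in 3 comparisons) moved by less than the standard deviation of the S. cerevisiae differences in the same comparison. TEM1 at 10% spike over baseline ranged from 0.16 to 0.20 and CDC14 from 0.13 to 0.17. With arrays centred on the S. cerevisiae median, which moved that comparison by -0.026, DBF20 was at -0.11. With that centring 3 of 10 members were past 0.1 rather than 2, against 17.1% of the S. cerevisiae probe sets. In 10% over 1% spike 3 members were also past 0.1, against 13% of those probe sets. With 10 genes, these counts are not a result about the network. In 10% over baseline the median of the members was -0.0035 after quantile normalization over again, -0.019 with centred arrays and 0.0095 with the loess trend removed, so its sign is not settled. The spindle pole list had 1 gene of 12 past 0.1 instead of 2 after quantile normalization over again, with centring and with the loess trend removed. The shares of all S. cerevisiae probe sets past 0.1 were 16%, 17.1% and 16.1% in these settings. The early anaphase list had 2 genes of 11 instead of 1 with centring, where the share of all S. cerevisiae probe sets was 17.1%. Ranked among all non-control probe sets, the median percentile of the members was 68.9 on the baseline array, 68.8 on the 1% array and 69.5 on the 10% array. Among S. cerevisiae probe sets in the members' range of levels, 19.8% were past 0.1 in 10% over baseline, and 15.4% in 10% over 1%. No paired analysis was possible because each group is 1 array. Signals near those of the lower-case probe sets, as for BFA1 and DOC1, limit what a difference can show.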
